A study of Mus musculus with 40 samples.

Results

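The comparison described here is the step from 3 to 10 µg/kg of TCDD in mouse kidney, measured over all genes. Its members were chosen by dose alone: 5 libraries labelled 10 µg/kg were set against 5 labelled 3 µg/kg, which makes 10 of the 40 libraries in the series, and no vehicle library entered. Both groups were male C57BL/6NCrl mice from Charles River, aged 30 days at the start and 58 days at the end. Each mouse was gavaged with the dioxin TCDD, dissolved in sesame oil, once per 4 days over 28 days (7 gavages), so the lower-dose side was itself treated. The labels set the groups apart by the dose per gavage, which was 3.33 times larger on the higher side. Replicates 3 and 4 at 10 µg/kg also carry an R after the number in the file name, which no library at 3 µg/kg does and whose meaning is not given in the sources used here. Each library came from about 100 mg of 1 right kidney. The labels carry no replicate number, so replicates are named 1 to 5 within a group in accession order and pair nothing between groups. In both groups replicates 1 to 3 have sample numbers up to 27, and replicates 4 and 5 have numbers from 28. Whether these runs of sample numbers are batches is not stated in the sources used here.

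TCDD is a ligand of AhR, the aryl hydrocarbon receptor, which waits in the cytoplasm as an inactive transcription factor. The bound receptor enters the nucleus, pairs with its partner ARNT and binds DNA at motifs with the core GCGTG, which raises transcription of genes of foreign-compound metabolism such as Cyp1a1 and of its own repressors Ahrr and Tiparp. TCDD is broken down very slowly, so repeated doses build up.

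Gene counts summed to between 15300952 and 25063646 per library. Levels are given as CPM, a gene's counts scaled to a common library total with TMM factors, and are compared between libraries for the same gene only. Of 9 technical measures, which included the mitochondrial share, the unmapped share and a score of medullary against cortical markers, none passed the test between the groups (lowest two-sided exact permutation p = 0.0714 for the total gene count, adjusted p = 0.367, where 5 against 5 cannot go below 0.00794). In a principal component analysis of the 10 libraries, replicate 1 at 10 µg/kg stood apart at a PC1 score of 46.9, while the other 9 lay between -21.7 and 11.0. Markers of the proximal tubule S1-S2 segments summed to 13950 to 16090 CPM in every library, so the main tubule cells of kidney cortex were present in all 10. Replicate 2 at 3 µg/kg had adrenal cortex markers at a summed 46.4 CPM against 5.51 to 7.35 in the other 9 libraries.

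Between the 2 doses, 30 of 17210 genes tested were called (0.174%), 23 of them higher (0.134%) and 7 lower (0.0407%) at 10 µg/kg. Genes were tested by quasi-likelihood in edgeR over all 35 TCDD libraries in 7 dose groups, with Benjamini-Hochberg adjustment over all genes and a call at an adjusted p under 0.05. Cyp1a1, a monooxygenase that is the standard readout of AhR activity, rose most, with a log2 fold change of 2.42 ± 0.19 (standard error). The other higher genes included the second AhR-induced monooxygenase Cyp1b1, the proton pump Atp12a, the prolactin receptor Prlr, the cytokine Il33 and the hyaluronan receptor Cd44. The largest fall was that of Tmprss9, a membrane-bound serine protease, at -1.68 ± 0.26. At an unadjusted p under 0.05 there were 1401 genes (8.14%), where 860 are the number that chance gives.

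The number of calls differed between fits. A fit to the 10 libraries alone called 149 of 15792 genes (0.944%), 101 higher (0.64%) and 48 lower (0.304%), and 27 of the 30 genes were among them. The 3 that were not are Lgals3bp, Ecm1 and Prlr (edgeR's adjusted p = 0.158, 0.128 and 0.112 there). Leaving out 1 library gave between 5 and 29 calls, and 5 of the 30 genes were called in all 10 such fits (Cyp1a1, Cyp1b1, Tmprss9, Cpm and Cd44). The labels name 1 mouse per library but not separate litters or cages, so p-values measure only the spread between these mice.

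**Figure D1:**
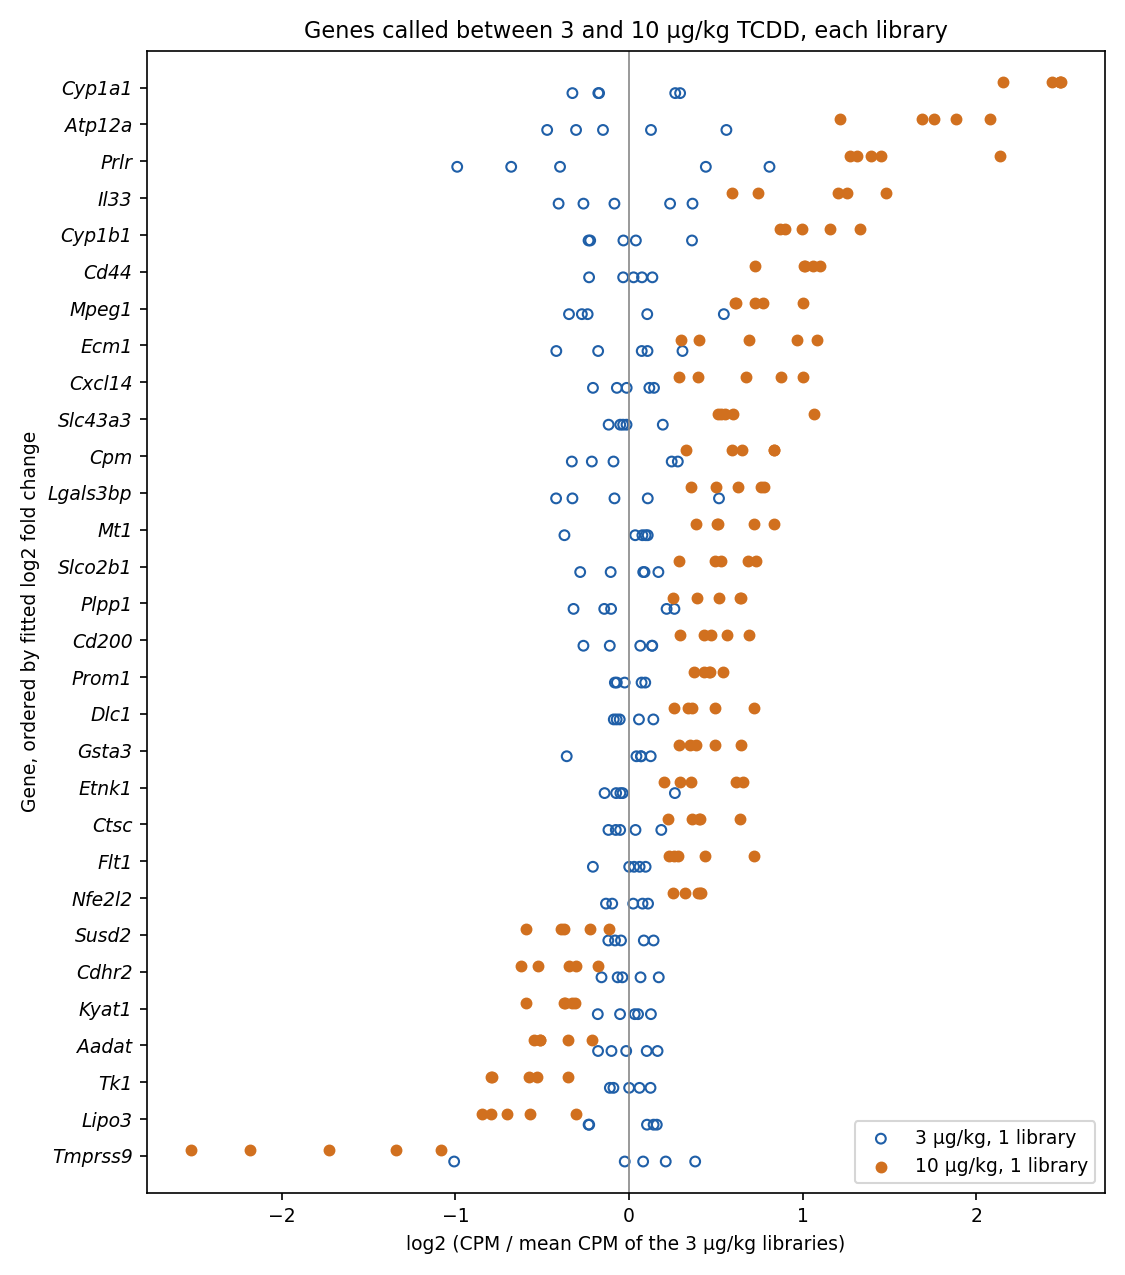
Each point is 1 library's log2 ratio of CPM to the mean of the 5 libraries at 3 µg/kg, for the 30 called genes (open blue circles, 3 µg/kg; filled orange circles, 10 µg/kg). In 25 of the 30 genes the groups do not overlap; Cyp1a1 lies farthest to the right and Tmprss9 farthest to the left.

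For 25 of the 30 called genes every library at 10 µg/kg lay beyond every library at 3 µg/kg, 19 of the 23 higher genes and 6 of the 7 lower ones. Of all genes tested, 474 were separated in this way (2.75%), 302 upward (1.75%) and 172 downward (0.999%). The 5 genes whose groups overlapped were Lgals3bp, Ecm1, Etnk1, Plpp1 and Susd2. Of the 30, the genes Ecm1, Etnk1, Ctsc, Susd2, Lgals3bp, Plpp1 and Cd200 fall outside the naming rule and were named after their values were seen.

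Promoters of 4 called genes that hold the AhR core motif are shown, chosen from the 10 with it. They are those of Cyp1a1, Cyp1b1, Cpm, which kept its call in all 20 alternatives, and Kyat1, the only lower gene with the motif among the 6 that have a promoter entry. Each runs 5′ to 3′ on the gene's strand from 250 bases before to 50 bases after the start, taken from RefSeq on GRCm38.p6, with GCGTG, or CACGC where the motif is on the opposite strand, in capitals.

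Cyp1a1 (chr9:57697363-57697662, plus strand): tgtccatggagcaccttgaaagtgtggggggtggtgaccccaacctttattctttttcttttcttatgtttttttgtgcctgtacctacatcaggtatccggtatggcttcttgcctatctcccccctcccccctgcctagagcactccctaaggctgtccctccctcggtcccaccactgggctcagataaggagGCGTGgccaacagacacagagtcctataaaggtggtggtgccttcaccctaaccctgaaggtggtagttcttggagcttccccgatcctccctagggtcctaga
Cyp1b1 (chr17:79715012-79715311, minus strand): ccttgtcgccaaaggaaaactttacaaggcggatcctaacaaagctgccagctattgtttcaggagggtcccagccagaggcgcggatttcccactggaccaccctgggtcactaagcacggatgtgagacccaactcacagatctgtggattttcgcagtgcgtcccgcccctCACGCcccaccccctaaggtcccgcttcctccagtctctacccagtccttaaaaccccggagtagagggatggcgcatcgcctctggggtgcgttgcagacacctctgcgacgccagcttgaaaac
Cpm (chr10:117629250-117629549, plus strand): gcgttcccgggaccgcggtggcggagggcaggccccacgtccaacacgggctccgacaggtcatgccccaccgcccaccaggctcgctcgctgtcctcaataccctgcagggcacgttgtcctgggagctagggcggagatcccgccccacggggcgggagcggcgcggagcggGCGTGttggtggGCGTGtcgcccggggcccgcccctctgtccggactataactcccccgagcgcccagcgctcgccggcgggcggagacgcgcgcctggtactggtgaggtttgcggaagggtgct
Kyat1 (chr2:30205798-30206097, minus strand): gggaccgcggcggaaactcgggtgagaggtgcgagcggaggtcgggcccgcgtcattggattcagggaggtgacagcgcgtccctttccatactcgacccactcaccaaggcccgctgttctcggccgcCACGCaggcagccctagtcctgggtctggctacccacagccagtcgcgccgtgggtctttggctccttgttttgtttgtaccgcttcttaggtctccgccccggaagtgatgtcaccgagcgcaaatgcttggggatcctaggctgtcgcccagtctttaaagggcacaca

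Cpm holds the motif at 2 places and the other 3 promoters at 1 each. Over the called genes with a promoter entry, GCGTG on either strand was present in 9 of 25 promoters of 19 higher genes (36%) and in 1 of 6 promoters of 6 lower genes (16.7%). Among 15485 promoters of 12150 tested genes the share was 46.9%. These counts describe windows of 300 bases and carry no test.

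The receptor and its partner gave no call. Ahr, the receptor, was at a mean of 10.1 CPM at 3 µg/kg and 10.4 CPM at 10 µg/kg, with a log2 fold change of 0.04 ± 0.15 (edgeR's adjusted p = 0.991). Arnt, its partner, was at 47.0 and 48.1 CPM, with 0.03 ± 0.08 (edgeR's adjusted p = 0.984). Neither sign of Ahr nor that of Arnt was stable, and both turned in a fit without 1 library.

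Cyp1a1 was at 261, 235, 261, 361 and 354 CPM in replicates 1 to 5 at 3 µg/kg and at 1312, 1598, 1647, 1646 and 1655 CPM at 10 µg/kg. The groups were far apart, with means of 295 ± 58.8 and 1571 ± 147 CPM (SD, n = 5), and replicate 1 was the lowest of the higher dose. The fitted ratio was 5.33-fold for a 3.33-fold step in dose (edgeR's adjusted p = 2.6e-09). Cyp1b1, which oxidises hydrocarbons and oestrogens, was at 55.2, 54.8, 66.2, 63.0 and 82.8 CPM at 3 µg/kg and at 120, 162, 118, 129 and 143 CPM at 10 µg/kg. Its groups did not overlap, and the ratio was 2.09-fold (log2 1.06 ± 0.15, edgeR's adjusted p = 0.00026).

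Cyp1a2, the third Cyp1 enzyme and mainly a liver gene, gave no call. It had 0, 0, 0, 3 and 11 reads in the 5 libraries at 3 µg/kg and 0, 16, 3, 12 and 129 reads at 10 µg/kg. Replicate 5 alone held most of the reads of its group. The log2 fold change was 3.29 ± 1.26 (edgeR's adjusted p = 0.42), and 1.20 without that replicate. A nearly silent gene with 1 high library cannot be placed on either side at this depth.

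The feedback repressors of AhR gave no call. Ahrr, which competes with AhR for ARNT, was at 6.08, 2.69, 4.70, 3.76 and 6.04 CPM at 3 µg/kg and at 9.37, 9.82, 10.3, 13.2 and 12.3 CPM at 10 µg/kg. The groups did not overlap, but the log2 fold change of 1.23 ± 0.31 missed the call (edgeR's adjusted p = 0.089), which the fit to 10 libraries gave (edgeR's adjusted p = 0.002). Tiparp, which ADP-ribosylates AhR, was at means of 27.9 and 34.6 CPM with overlapping groups (log2 0.31 ± 0.10, edgeR's adjusted p = 0.204).

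Among redox members of the AhR battery, values were as follows. Nqo1, a quinone reductase with both AhR and NRF2 sites, was at 77.1, 86.0, 66.2, 92.8 and 83.2 CPM at 3 µg/kg and at 126, 145, 112, 132 and 111 CPM at 10 µg/kg. Every higher-dose library exceeded every lower-dose library, yet the log2 fold change of 0.63 ± 0.15 missed the call (edgeR's adjusted p = 0.083). The fit to 10 libraries called it (edgeR's adjusted p = 0.00087). Aldh3a1, an aldehyde dehydrogenase inducible by dioxin in other tissues, was at 3.62 and 3.65 CPM, with 0.01 ± 0.31 and no call. At 30 against 1 µg/kg Aldh3a1 was called higher (log2 1.40 ± 0.32, edgeR's adjusted p = 0.0015), with means of 7.09 and 2.67 CPM.

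Of the 18 tested genes of the whole AhR battery list, 3 were called higher (Cyp1a1, Cyp1b1 and Nfe2l2), 0 lower, and 15 had a log2 fold change above 0. The list's median was 0.29, where the median of all genes tested was 0.000656 and 50.2% of them lay above 0. Nfe2l2 encodes NRF2, the transcription factor of the oxidative stress response, and is also an AhR target. It was at 110, 127, 113, 130 and 123 CPM at 3 µg/kg and at 158.5, 159.8, 150.4, 143.7 and 160.6 CPM at 10 µg/kg, without overlap. Its log2 fold change was 0.36 ± 0.07 (edgeR's adjusted p = 0.021).

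NRF2's own targets gave 0 calls among 20 tested members, with 14 above 0 and a median of 0.16. In the fit to 10 libraries 4 of them passed, namely Gsr, Nqo1, Gsta2 and Abcc4. Gsr, which restores glutathione, was at 216 and 274 CPM (log2 0.34 ± 0.08, edgeR's adjusted p = 0.06). Abcc4, an export pump for conjugates, was at 59.3, 63.3, 55.4, 65.4 and 73.8 CPM at 3 µg/kg and at 97.7, 151, 91.5, 107 and 103 CPM at 10 µg/kg. These groups did not overlap, and edgeR's adjusted p was 0.174 in the fit to 35 libraries.

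Among 35 tested conjugation enzymes 1 was called, the glutathione transferase Gsta3, and 22 lay above 0 with a median of 0.03. Gsta3 was at 111, 105, 79.5, 107 and 107 CPM at 3 µg/kg and at 144, 159, 130, 133 and 124 CPM at 10 µg/kg. Replicate 3 was the lowest at 3 µg/kg, and the groups stayed apart with or without it. The log2 fold change was 0.44 ± 0.09 (edgeR's adjusted p = 0.021). Its relative Gsta2 was at 137 and 206 CPM without overlap and without a call (edgeR's adjusted p = 0.111). Reads that map to several places, as those of close glutathione transferase copies can, were left out with the lines that name no gene.

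Mt1, a metallothionein that binds zinc and cadmium, was at 107, 106, 103, 108 and 77.5 CPM at 3 µg/kg and at 131, 142, 143, 179 and 165 CPM at 10 µg/kg. It was higher in every library of the larger dose, by 0.60 ± 0.13 (log2, edgeR's adjusted p = 0.041). Its call was lost in 9 of the 10 fits that left out 1 library. Mt2 was not tested, and Mt3 was near 1 CPM in both groups.

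Atp12a, the catalytic subunit of the colonic type of proton-potassium pump, was at 4.12, 4.63, 8.43, 6.24 and 5.15 CPM at 3 µg/kg and at 19.3, 21.1, 24.2, 13.3 and 18.4 CPM at 10 µg/kg. The lowest library of the larger dose was above the highest of the smaller. The ratio was 3.38-fold (log2 1.76 ± 0.35, edgeR's adjusted p = 0.03). Of its exonic bases 13.9% overlap another gene model, Gm10873, and the counting column used does not separate strands. The other 14 tested members of the pump list gave no call.

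Prlr, the receptor for prolactin, was at 28.7, 37.1, 10.7, 13.2 and 16.1 CPM at 3 µg/kg and at 52.6, 93.0, 57.9, 51.1 and 55.6 CPM at 10 µg/kg. Replicate 2 was the highest of both groups, and the spread at 3 µg/kg was wide, but the groups did not overlap. The ratio was 2.92-fold (log2 1.55 ± 0.32, edgeR's adjusted p = 0.039). A fit without replicate 2 at 10 µg/kg gave 1.36 on the log2 scale (edgeR's adjusted p = 0.175).

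Slc43a3, a purine base transporter, was at 22.0, 21.8, 25.8, 20.8 and 22.3 CPM at 3 µg/kg and at 34.2, 47.2, 32.2, 32.5 and 33.1 CPM at 10 µg/kg, a log2 fold change of 0.67 ± 0.13 (edgeR's adjusted p = 0.013). Slco2b1, an organic anion transporter, was at means of 18.5 and 27.2 CPM, with no overlap and 0.56 ± 0.13 (edgeR's adjusted p = 0.042). Its call was lost in 9 of the 10 fits without 1 library. It was the only one called of 29 tested drug and organic ion transporters, whose median was 0.02. Some 9.21% of its exonic bases are shared with other gene models.

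Il33, an alarmin of the interleukin-1 family, was at 8.77, 6.21, 5.62, 9.59 and 7.02 CPM at 3 µg/kg and at 17.8, 20.7, 12.4, 11.2 and 17.1 CPM at 10 µg/kg. Replicates 3 and 4 were the lower of the larger dose and still exceeded all of the smaller. The ratio was 2.13-fold (log2 1.09 ± 0.20, edgeR's adjusted p = 0.0061). Cxcl14, a chemokine made by epithelium, was at 31.2, 24.5, 26.9, 30.7 and 28.0 CPM at 3 µg/kg and at 37.2, 51.9, 34.5, 56.6 and 45.1 CPM at 10 µg/kg. It was higher by 0.68 ± 0.14 (log2, edgeR's adjusted p = 0.035) and was the only one called of 31 tested chemokines and chemokine receptors, of which 19 lay above 0.

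Cd44, which binds hyaluronan and rises in injured tubules, was at 5.65, 4.39, 5.42, 5.03 and 5.24 CPM at 3 µg/kg and at 8.504, 11.0, 10.7, 10.4 and 10.4 CPM at 10 µg/kg. Both groups were tight and far apart, with a 1.98-fold ratio (log2 0.99 ± 0.17, edgeR's adjusted p = 0.0042). It was the only one called of 18 tested tubular injury genes, of which 15 lay above 0 with a median of 0.16. The injury markers Havcr1 (KIM-1) and Lcn2 (NGAL) stayed low, Havcr1 at 1.17 and 1.55 CPM and Lcn2 at 2.44 and 2.63 CPM. Their log2 fold changes were 0.38 ± 0.46 and 0.11 ± 0.31 (edgeR's adjusted p = 0.928 and 0.987), and that of Lcn2 changed sign between settings.

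Mpeg1, a pore-forming protein of macrophages, was at 15.2, 20.7, 16.3, 16.0 and 28.1 CPM at 3 µg/kg and at 31.8, 38.5, 29.5, 32.9 and 29.5 CPM at 10 µg/kg. Replicate 5 at 3 µg/kg came close to the larger dose. The log2 fold change was 0.75 ± 0.17 (edgeR's adjusted p = 0.043), and the call was lost in 9 of 10 fits without 1 library. Ctsc, a lysosomal protease that activates granule enzymes, was higher by 0.41 ± 0.09. Lgals3bp, a secreted glycoprotein that binds galectins, was higher by 0.61 ± 0.12, with overlapping groups, and the immune checkpoint ligand Cd200 by 0.50 ± 0.11.

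Mpeg1 stands in a macrophage and monocyte marker list of 25 genes, of which 23 lay above 0, with a median of 0.29 and 1 call. The list summed to 282 to 383 CPM at 3 µg/kg and to 374 to 429 CPM at 10 µg/kg, so the ranges overlapped slightly. None of its members was at 0 in all 10 libraries. The complement list, which shares C1qa, C1qb and C1qc with the macrophage list, had 18 of 19 members above 0, a median of 0.47 and 0 calls. C1qc, a chain of the complement starter C1q made by macrophages, was at 13.2, 12.4, 12.9, 10.6 and 17.3 CPM at 3 µg/kg and at 24.2, 22.1, 19.6, 25.3 and 18.4 CPM at 10 µg/kg, without overlap (log2 0.72 ± 0.17, edgeR's adjusted p = 0.073). In the fit to 10 libraries C1qa, C1qb, C1qc, C1ra and C7 passed. The part of macrophage content in these values was not tested, and in bulk tissue more cells of a type and more RNA per cell cannot be told apart.

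Interferon-induced genes lay above 0 nearly throughout, without a call. Of 34 type I interferon response genes 33 had a positive log2 fold change, with a median of 0.42, and the exception was Ifi35 at -0.04. Irf7, the master regulator of the response, was at 21.1 and 34.9 CPM (log2 0.72 ± 0.19, edgeR's adjusted p = 0.115). Isg15, a ubiquitin-like modifier, was at 3.96, 5.74, 5.10, 4.29 and 5.10 CPM at 3 µg/kg and at 11.1, 6.98, 8.17, 9.82 and 6.89 CPM at 10 µg/kg, without overlap (edgeR's adjusted p = 0.271). The fit to 10 libraries passed Irf7, Cmpk2 and Isg15.

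Averaged over the 34 genes, log2 CPM relative to the 3 µg/kg mean was -0.14, 0.09, 0.03, -0.29 and 0.31 in replicates 1 to 5 at 3 µg/kg and 0.45, 0.49, 0.39, 0.52 and 0.28 at 10 µg/kg. Replicate 5 at 3 µg/kg reached above replicate 5 at 10 µg/kg, so the groups overlapped. The interferon-gamma list had 18 of 25 members above 0 and a median of 0.18, and MHC class II presentation had 11 of 12 and 0.34. In both, replicates 2 and 5 at 3 µg/kg were as high as libraries of the larger dose.

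Flt1, a receptor for vascular endothelial growth factor, was at 58.5, 50.6, 61.0, 59.7 and 62.5 CPM at 3 µg/kg and at 70.1, 96.4, 71.0, 68.5 and 79.4 CPM at 10 µg/kg. It was higher by 0.40 ± 0.09 (log2, edgeR's adjusted p = 0.039) without overlap. It was 1 of 19 tested endothelial markers, of which 17 lay above 0 with a median of 0.26, and the list summed to 905 to 1106 CPM against 1135 to 1284 CPM. Tek, the angiopoietin receptor, was at 48.3 and 62.0 CPM (log2 0.36 ± 0.09, edgeR's adjusted p = 0.109).

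The remaining cell marker lists gave no call except Aadat, described with the lower genes. All 10 podocyte markers lay above 0, with a median of 0.19 and sums of 426 to 521 CPM against 496 to 638 CPM. All 10 intercalated cell markers lay below 0, with a median of -0.13 and sums of 594 to 636 CPM against 538 to 579 CPM. With a covariate for medullary against cortical markers, 41 genes were called (32 higher, 9 lower) and all 30 were among them. That covariate sets thick ascending limb and principal cell markers against proximal tubule markers. It holds no marker of podocytes, intercalated cells, endothelium, macrophages or fat, whose part in the calls was not tested.

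The remaining higher genes were of mixed function. Cpm, a membrane carboxypeptidase that trims arginine and lysine from peptides, was at 37.4, 31.7, 34.3, 48.4 and 47.2 CPM at 3 µg/kg and at 60.0, 71.1, 49.9, 62.5 and 70.9 CPM at 10 µg/kg. Its groups were next to each other but apart, with 0.66 ± 0.11 (log2, edgeR's adjusted p = 0.0033), and Cyp1a1, Cyp1b1 and Cpm were the 3 genes called in all 20 alternatives. Prom1, a marker of epithelial progenitors, was at 112, 100.3, 104, 113 and 101 CPM at 3 µg/kg and at 143, 155, 146, 137 and 147 CPM at 10 µg/kg. That is a narrow spread around a log2 fold change of 0.46 ± 0.09 (edgeR's adjusted p = 0.01).

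Dlc1 was higher by 0.44 ± 0.09 (log2, edgeR's adjusted p = 0.012), with means of 37.0 and 50.4 CPM and no overlap. Ecm1, a matrix glycoprotein, was higher by 0.72 ± 0.15. The lipid enzymes Etnk1, an ethanolamine kinase, and Plpp1, a lipid phosphate phosphatase, were higher by 0.44 ± 0.10 and 0.50 ± 0.11. Of Plpp1's exonic bases 25.8% overlap Mtrex. Reads that overlap both genes are ambiguous to the counting and were left out with the lines that name no gene.

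Lower genes were fewer, and apart from Tmprss9 their log2 fold changes lay between -0.63 and -0.33. Tmprss9 was at 3.17, 6.26, 8.30, 7.38 and 6.74 CPM at 3 µg/kg and at 1.40, 1.11, 3.01, 1.93 and 2.51 CPM at 10 µg/kg. Replicate 1 at 3 µg/kg came close to replicate 3 at 10 µg/kg, and the groups did not overlap (edgeR's adjusted p = 0.00045). Lipo3, a gene of the acid lipase family, was at 34.0, 42.9, 44.6, 44.0 and 33.9 CPM at 3 µg/kg and at 32.3, 23.0, 24.5, 22.2 and 26.8 CPM at 10 µg/kg. It fell by 0.63 on the log2 scale (standard error 0.14, edgeR's adjusted p = 0.042).

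Tk1, the thymidine kinase of dividing cells, was at 11.7, 10.1, 11.2, 9.93 and 10.7 CPM at 3 µg/kg and at 6.19, 7.41, 8.40, 7.19 and 6.20 CPM at 10 µg/kg. The groups were well apart, with a log2 fold change of -0.60 ± 0.13 (edgeR's adjusted p = 0.035). The 20 genes of the cell cycle list gave 0 calls, with 6 above 0 and a median of -0.11. Cdhr2, a protocadherin of the brush border, was at means of 58.2 and 44.5 CPM (log2 -0.39 ± 0.08, edgeR's adjusted p = 0.03), and Susd2, a membrane protein, at 359 and 285 CPM (log2 -0.33 ± 0.07, edgeR's adjusted p = 0.042).

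Aadat and Kyat1 are aminotransferases that turn kynurenine into kynurenic acid, and both were called lower. Kynurenic acid is itself a ligand of AhR. Aadat was at 242, 307, 271, 294 and 255 CPM at 3 µg/kg and at 192, 188, 236, 215 and 192 CPM at 10 µg/kg. Kyat1 was at 94.5, 110, 103, 111 and 117 CPM at 3 µg/kg and at 82.8, 86.3, 82.6, 71.0 and 85.4 CPM at 10 µg/kg. Neither gene's groups overlapped, although replicate 3 at 10 µg/kg brought Aadat close, and the log2 fold changes were -0.42 ± 0.09 and -0.39 ± 0.08 (edgeR's adjusted p = 0.021 and 0.03). Of the 10 fits that left out 1 library, the call of Kyat1 was lost in 9 and that of Aadat in 6.

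A list of 13 kynurenine pathway genes, written after these 2 values were seen, had 12 tested members, of which these 2 were called. The other aminotransferases of the list, Kyat3 and Got2, were at log2 fold changes of -0.05 and -0.04 (edgeR's adjusted p = 0.984 and 0.959). Kynu, which cleaves kynurenine to anthranilic acid, was at 16.2, 15.0, 12.0, 9.66 and 10.9 CPM at 3 µg/kg and at 20.6, 25.0, 17.4, 20.5 and 23.8 CPM at 10 µg/kg. It was higher in every library of the larger dose, and its log2 fold change of 0.75 ± 0.22 missed the call (edgeR's adjusted p = 0.195). The fit to 10 libraries called Kynu higher (edgeR's adjusted p = 0.0095), as did the contrast of 30 against 1 µg/kg (log2 1.92, edgeR's adjusted p = 4.2e-07). The oxidase Kmo was at 141 and 138 CPM and the decarboxylase Acmsd at 192 CPM in both groups.

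Aadat is also 1 of 8 markers of the S3 proximal tubule, of which 2 lay above 0, with a median of -0.10 and no other call. Of 17 androgen-responsive kidney genes 16 lay below 0, with a median of -0.26. Pzp, a protease inhibitor of that list, was at 40.9, 57.1, 48.2, 63.4 and 69.4 CPM at 3 µg/kg and at 39.2, 23.4, 33.1, 21.0 and 35.6 CPM at 10 µg/kg. The androgen list gave 0 calls, and Pzp's groups were apart by a narrow margin (log2 -0.88 ± 0.39, edgeR's adjusted p = 0.535). All 13 mitochondrially encoded genes lay below 0, with a median of -0.28, and their share of the counts was 9.77 ± 1.30% at 3 µg/kg and 8.77 ± 0.61% at 10 µg/kg (SD, n = 5, exact permutation p = 0.159).

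**Figure D2:**
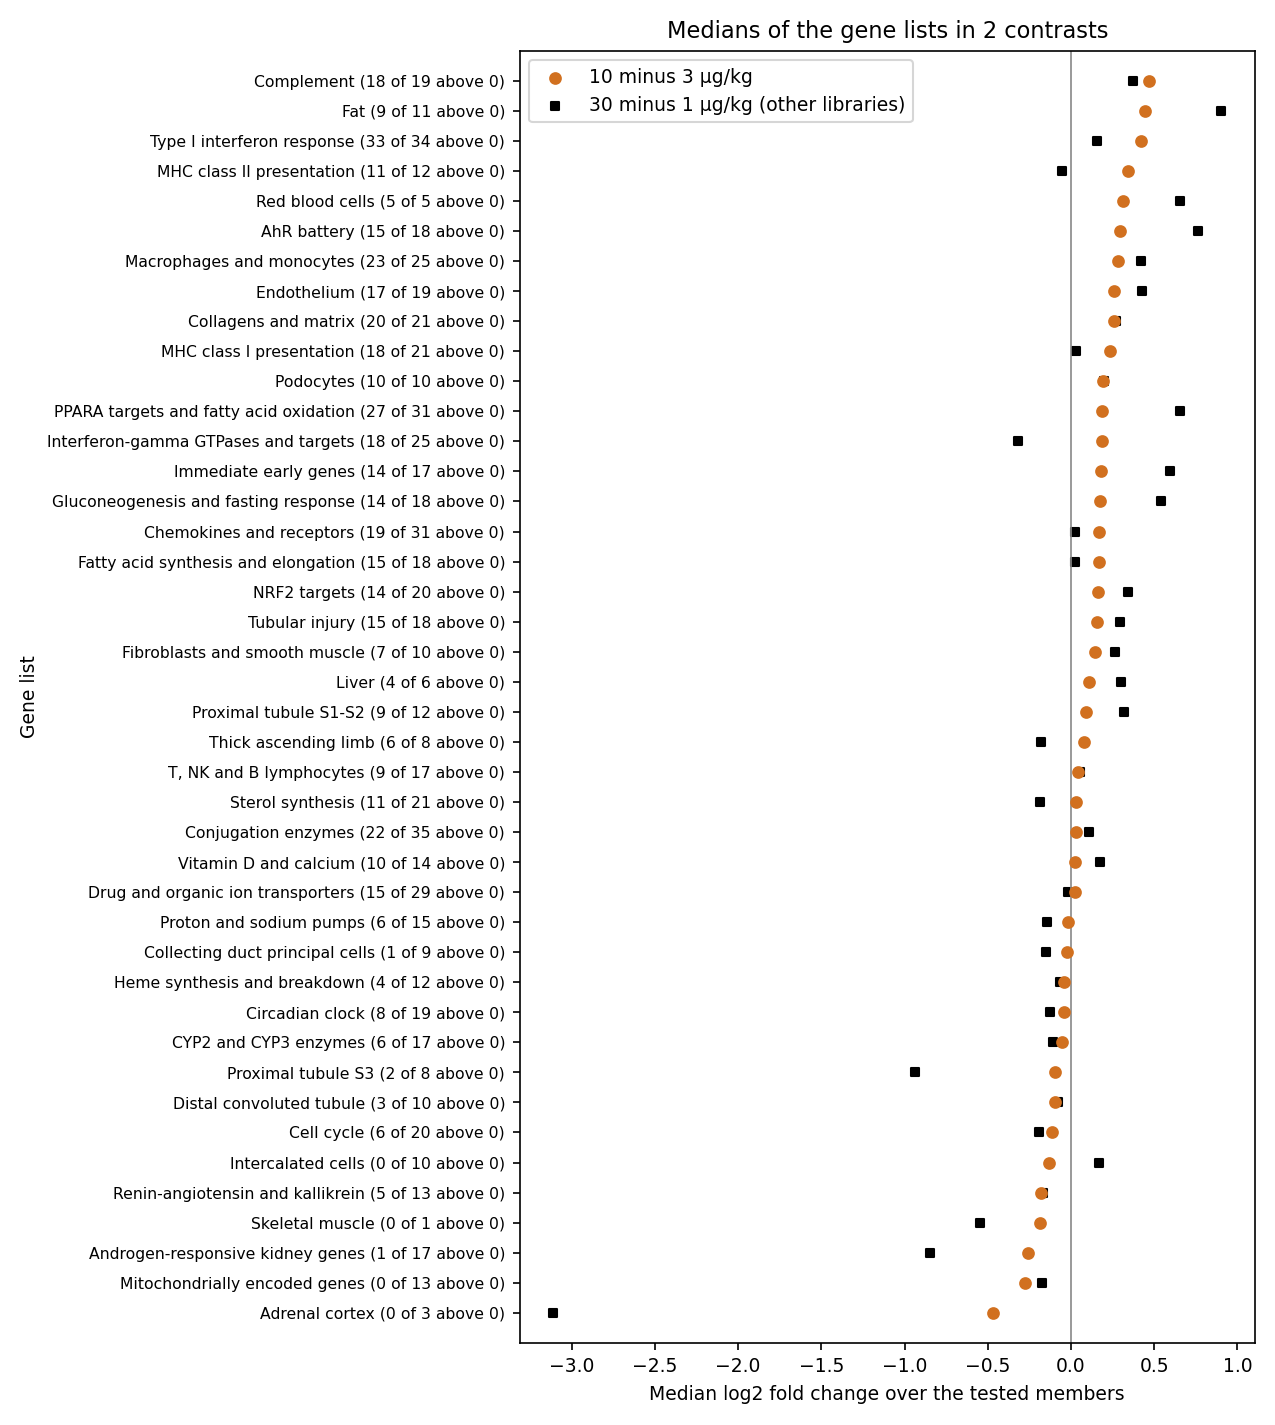
Median log2 fold change over the tested members of each of 42 gene lists for 10 minus 3 µg/kg (orange circles) and for 30 minus 1 µg/kg (black squares, other libraries), with the number of members above 0 in the first contrast beside each name. Complement is highest at 0.47 and the adrenal cortex list, with 3 tested members, lowest at -0.47. Adrenal cortex markers summed to 46.4 CPM in replicate 2 at 3 µg/kg and to 5.51 to 7.35 CPM in every other library of the 2 groups. The grey line is the median of all genes tested.

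Over all 42 lists, 9 held at least 1 called gene, and 11 of the 30 called genes were in any list. In the fit to 10 libraries 18 lists held a call. The fat marker list, with 9 of 11 members above 0 and a median of 0.44, summed to 136 to 407 CPM at 3 µg/kg and to 127 to 549 CPM at 10 µg/kg. These ranges overlapped, and the part of fat in the results was not tested.

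**Figure D3:**
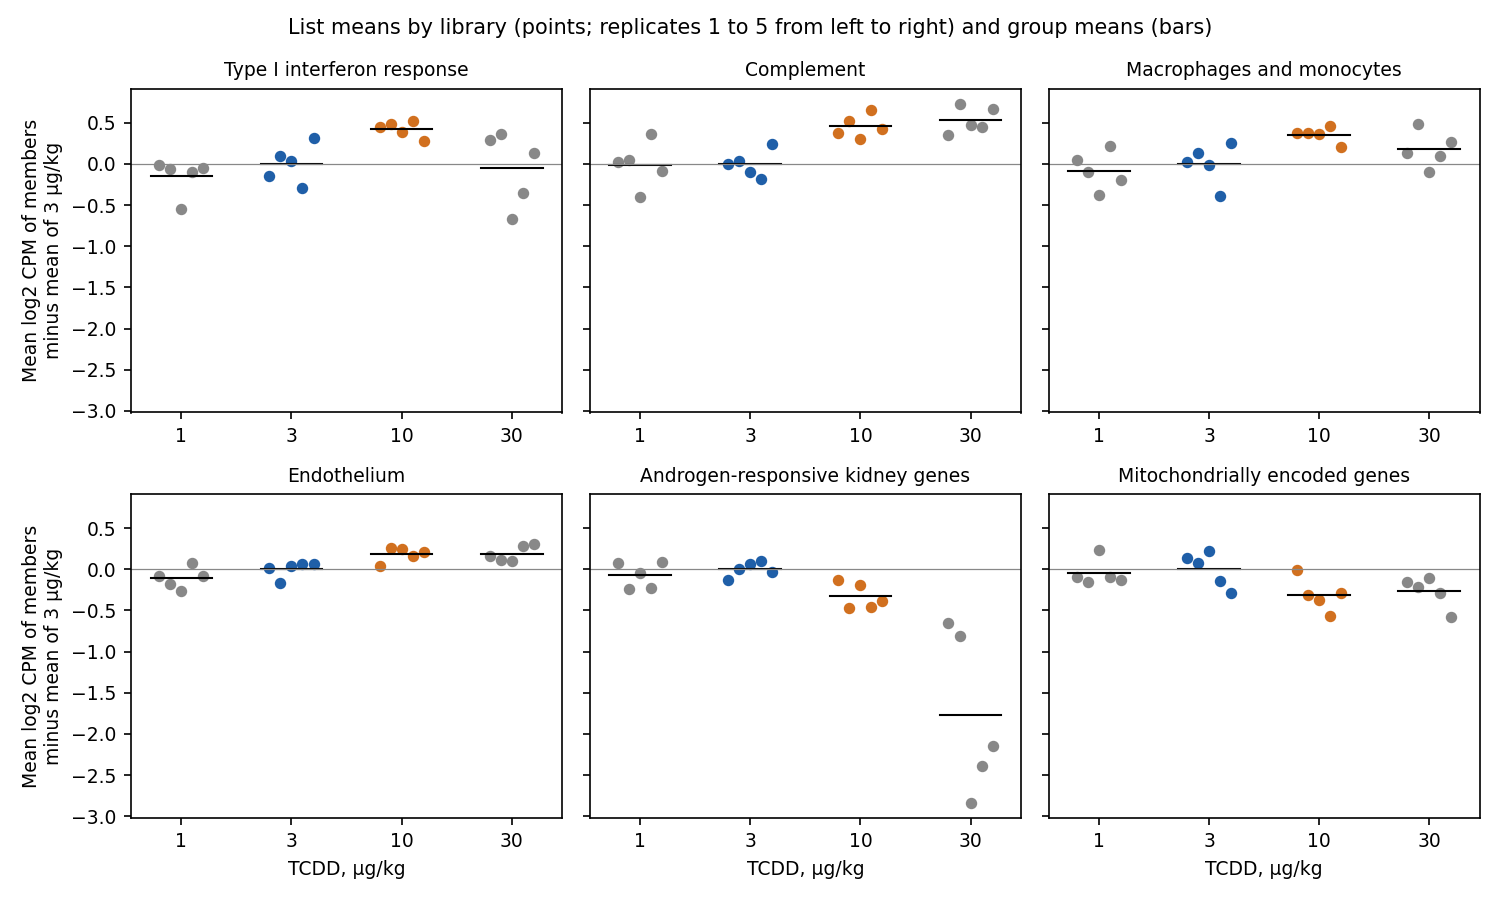
Mean log2 CPM of the members of 6 lists in each library at 1, 3, 10 and 30 µg/kg, relative to the mean of the 3 µg/kg libraries (points; horizontal bars are group means). Interferon genes lie at 0.28 to 0.52 in the 5 libraries at 10 µg/kg, and androgen-responsive genes at -0.13 to -0.47. At 3 µg/kg they lie at -0.29 to 0.31 and at -0.14 to 0.10, so the groups overlap in both lists.

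The called genes were next read in 10 libraries that the contrast did not use, at 30 and 1 µg/kg, in the same fit. There 2257 genes were called (13.1%), 1122 higher (6.52%) and 1135 lower (6.6%). All 30 genes kept their sign, where 64.6% of all genes tested had the same sign in both contrasts. Of the 30, 28 were called in the same direction (93.3%), against 11.9% of all genes tested. The 2 that were not were Cxcl14 (log2 0.41, edgeR's adjusted p = 0.052) and Mpeg1 (log2 0.48, edgeR's adjusted p = 0.054). Of the 149 genes called in the fit to 10 libraries, 146 had the same sign (98%) and 122 were called in the same direction (81.9%).

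**Figure D4:**
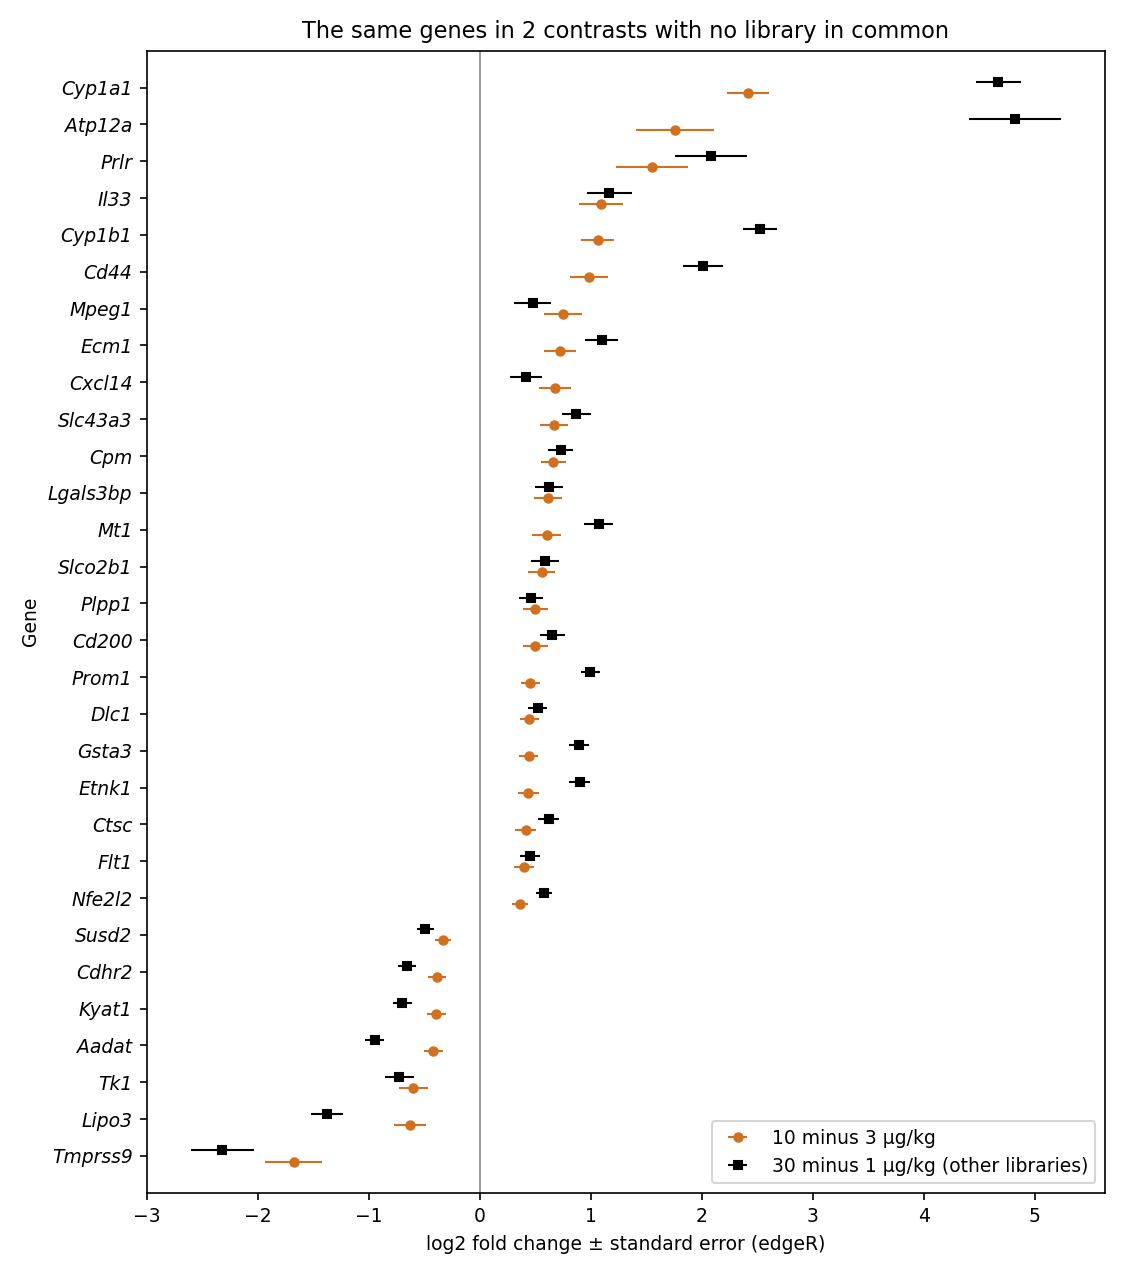
Log2 fold change with its standard error for the 30 called genes at 10 minus 3 µg/kg (orange circles) and 30 minus 1 µg/kg (black squares), 2 contrasts with no library in common. The change is larger in size at 30 minus 1 µg/kg in 27 of the 30 genes, most so for Atp12a (1.76 and 4.82) and Cyp1a1 (2.42 and 4.67). Of all 17210 genes tested 11251 also have the larger change in that contrast, whose doses lie farther apart.

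At 30 against 1 µg/kg the AhR battery had a median of 0.76 with 11 of 18 called higher, endothelial markers 0.43 with 13 of 19, and PPARA targets of fatty acid oxidation 0.65 with 24 of 31. At 10 against 3 µg/kg the PPARA list had a median of 0.19, 27 of 31 above 0 and 0 calls. Cyp4a14, a fatty acid hydroxylase of that list, was at 25.8, 32.3, 10.9, 5.63 and 14.4 CPM at 3 µg/kg and at 33.6, 132, 34.8, 147 and 50.2 CPM at 10 µg/kg. Replicates 2 and 4 were far above the rest of their group, and the groups lay side by side without overlap (edgeR's adjusted p = 0.231).

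Androgen-responsive genes had a median of -0.85 at 30 against 1 µg/kg, with 15 of 17 called lower. The type I interferon list had a median of 0.16 there, with 2 called higher and 1 lower, and the interferon-gamma and MHC class II lists had medians of -0.32 and -0.05. Those 3 lists thus had larger medians at the inner pair of doses than at the outer pair. They were not alone in this, as MHC class I presentation had 0.23 and 0.03 and complement 0.47 and 0.38. Libraries at 30 µg/kg were spread, with type I interferon means of 0.29, 0.37, -0.67, -0.35 and 0.13 in replicates 1 to 5, relative to the 3 µg/kg mean. The difference between the contrasts was not tested.

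**Figure D5:**
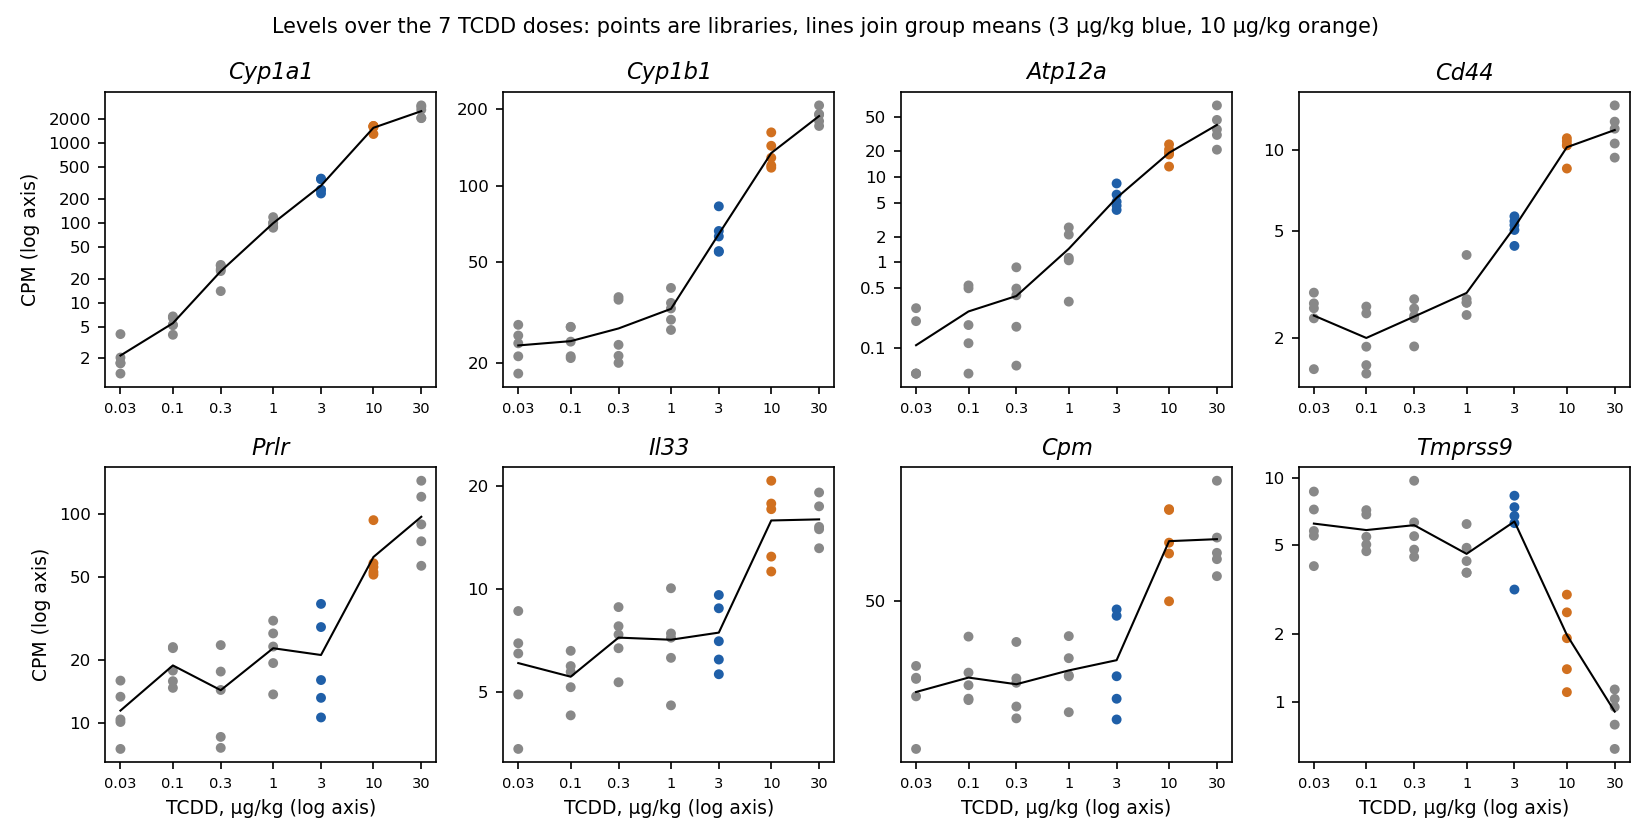
CPM of 8 called genes in each library over the 7 TCDD doses on log axes (points; lines join group means; 3 µg/kg blue, 10 µg/kg orange; libraries without a read are drawn at 0.05 CPM). The means of Cyp1a1 and Atp12a are higher at each larger dose. Il33, Cpm and Tmprss9 have close means up to 3 µg/kg, and their means at 10 and 30 µg/kg lie apart from these. Single libraries up to 3 µg/kg spread more widely, Il33 from 3.39 to 10.0, Cpm from 28.3 to 48.4 and Tmprss9 from 3.17 to 9.67 CPM.

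Over all 7 TCDD doses Cyp1a1 had means of 2.17, 5.52, 24.8, 99.5, 295, 1571 and 2542 CPM from 0.03 to 30 µg/kg, and Atp12a of 0.11, 0.27, 0.41, 1.45, 5.71, 19.2 and 40.8 CPM. For both, each group mean exceeded the one at the dose below it. Cyp1b1 was at 23.4 to 32.6 CPM up to 1 µg/kg, then at 64.4, 134 and 188 CPM. Cd44 was at 2.00 to 2.94 CPM up to 1 µg/kg, then at 5.15, 10.2 and 11.8 CPM.

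Other called genes had close means at all doses below 10 µg/kg. Il33 had means of 6.06, 5.53, 7.20, 7.09 and 7.44 CPM at the 5 lower doses, then 15.9 and 16.0 CPM. Cpm was at 35.2 to 39.8 CPM and then at 62.9 and 63.4 CPM. Slc43a3 was at 20.5 to 23.5 CPM and then at 35.8 and 40.7 CPM, and Slco2b1 at 18.5 to 20.2 CPM and then at 27.2 and 28.6 CPM. In these 4 genes the largest gap between neighbouring means was that from 3 to 10 µg/kg. All 4 were chosen by their call at that step in the same libraries, which favours a large gap there.

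Contrasts of neighbouring doses, which share libraries with the one described, put values on these shapes. From 1 to 3 µg/kg the log2 fold change was 1.57 ± 0.18 for Cyp1a1 and 0.98 ± 0.15 for Cyp1b1, the only 2 of all genes called at that step (0.0116%). It was 0.07 ± 0.20 for Il33, 0.06 ± 0.11 for Cpm and -0.10 ± 0.33 for Prlr. From 10 to 30 µg/kg, where 505 genes were called (2.93%), 212 higher (1.23%) and 293 lower (1.7%), it was 0.69 ± 0.18 for Cyp1a1, 0.01 ± 0.19 for Il33, 0.01 ± 0.11 for Cpm and 0.64 ± 0.31 for Prlr.

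Among the lower genes the means up to 3 µg/kg were also close. Tmprss9 had means of 6.23, 5.83, 6.14, 4.57 and 6.37 CPM at the 5 lower doses, then 1.99 and 0.91 CPM. Kyat1 was at 97.2 to 107 CPM and then at 81.6 and 62.6 CPM, and Lipo3 at 39.9 to 43.0 CPM and then at 25.7 and 15.5 CPM. Between 10 and 30 µg/kg Tmprss9 changed further, by -1.11 ± 0.29 (log2), Kyat1 by -0.38 ± 0.08 and Lipo3 by -0.73 ± 0.14, and each was called lower again (edgeR's adjusted p = 0.024, 0.0054 and 0.0025). Tk1, at 7.08 and 7.25 CPM, was not (0.04 ± 0.13). The means of Aadat went from 319 CPM at 0.03 µg/kg to 274 CPM at 3 µg/kg.

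Of the list members that the fit to 10 libraries called and the fit to 35 did not, Cyp27b1 had the largest log2 fold change. It encodes the enzyme that makes active vitamin D and was named after its values were seen. Cyp27b1 was at 5.81, 4.21, 6.27, 5.50 and 4.12 CPM at 3 µg/kg and at 9.23, 9.77, 14.8, 24.0 and 26.6 CPM at 10 µg/kg. The groups were apart, with a wide spread at the larger dose (log2 1.71 ± 0.51, edgeR's adjusted p = 0.204 in the fit to 35 libraries and 0.04 in the fit to 10). The other 13 tested genes of vitamin D and calcium handling gave no call in either fit.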

How the data were processed

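Right kidneys of 40 mice were sequenced as 150 bp paired reads. Counts per gene were deposited by the authors as 1 table per library, with FastQC 0.11.7, Trimmomatic 0.39, STAR 2.7.3a and DESeq2 listed per the submitters' processing notes. Those notes list both GRCm39 and mm10, so no gene coordinates are given except RefSeq promoters on GRCm38.p6. The unstranded count column was used, and lines that name no gene (21.3 to 23.9% of counts) were left out. Of 55359 identifiers 52083 had a symbol in GENCODE's mouse annotation, and the others held 0.539% of counts. Counts of the 35 TCDD libraries were filtered (filterByExpr), scaled by TMM and fitted in edgeR 4.0.16 (R 4.3.3) with 7 dose groups, robust quasi-likelihood dispersions, 28 residual degrees of freedom and a biological coefficient of variation of 16.9%. Vehicle libraries were not used, as the comparison is between 2 doses. Called means a Benjamini-Hochberg adjusted p under 0.05. Replicate libraries differed by more than counting noise in all 20 pairs.

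Named genes were 12 fixed ones, of called genes without overlap between the groups and with a mean of at least 1 CPM the 12 with the largest change in each direction and then the 4 with the lowest p, and called list members. The members and gene lists were chosen with earlier results of these data known. Alternatives were another normalization, filter, tool (DESeq2 1.42.0), strand column, covariates, sets of libraries and leaving out each library. The code was tested on simulated counts.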

Additional observations from a re-analysis of the deposited data

Results flagged for a closer look

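Each named gene, and the total gene count, was checked in both dose groups for a library far from the other 4, by the gap to its nearest neighbour over the group's range (Dixon's critical value 0.71 for 5 libraries). Of 80 groups 9 passed, where chance gives about 1 in 20, or 4.

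Replicate 1 at 10 µg/kg was the lowest of its group for Cyp1a1, at 1312 CPM with the next library at 1598, and for Cd44, at 8.504 CPM with the next at 10.37. Replicate 2 at 10 µg/kg was the highest for Slc43a3, at 47.2 CPM with the next at 34.16, and for the prolactin receptor Prlr, at 92.96 CPM with the next at 57.9. Replicate 5 at 3 µg/kg was the highest for Etnk1, at 261.8 CPM with the next at 212.5, and the lowest for Mt1, at 77.52 CPM with the next at 102.8. Gsta3 was low in replicate 3 at 3 µg/kg, at 79.45 CPM with the next at 105. Kyat1 was low in replicate 4 at 10 µg/kg, at 71.04 CPM with the next at 82.6. Cyp1a2 was high in replicate 5 at 10 µg/kg, at 6.346 CPM with the next at 0.7698.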

How the results depend on the processing

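Of the 30 genes, Cyp1a1, Cyp1b1 and Cpm were called in all 20 alternatives, and Tmprss9 and Cd44 also in all 10 fits that left out 1 library. The count of calls moved most with the libraries in the fit and with the tool. The 10 libraries alone gave 149 calls, 101 higher and 48 lower. DESeq2, on the same 35 libraries as the main fit, gave 87, 62 higher and 25 lower. All 40 libraries, vehicle included, gave 19, 16 higher and 3 lower. Leaving out 1 library gave 5 to 29 calls, 4 to 23 higher and 1 to 7 lower. The fewest came without replicate 2 at 10 µg/kg, then 9 without replicate 3 at 3 µg/kg, 10 without replicate 5 at 10 µg/kg, 15 without replicate 2 at 3 µg/kg, 17 without replicate 4 at 10 µg/kg and 19 without replicate 4 at 3 µg/kg. These fits had fewer libraries, and no other cause was tested. Other scaling, filters, a term for the run of sample numbers, a composition covariate and the counts of 1 strand gave 26 to 41 calls. That strand's column held 50.4 to 50.9% of the counts of both strands, so it rests on fewer reads, whose part was not tested. Without both 10 µg/kg libraries with an R after the number in the file name there were 23 calls. Of the 30 genes, 19 were among the calls with the counts of 1 strand, 23 with no filter and 20 without that pair. Signs turned only for genes near 0. The log2 fold change of Lcn2 was -0.0398 with the counts of 1 strand, -0.0842 without that pair, and -0.043 to 0.38 over fits without 1 library. In those fits Aldh3a1 ranged from -0.122 to 0.141, Ahr from -0.00493 to 0.126 and Arnt from -0.00226 to 0.0816. Depth limits genes near 1 CPM such as Cyp1a2 and Havcr1. No paired analysis was possible because the labels give no replicate numbers, and accession order pairs nothing.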
